A study of Rattus norvegicus with 9 samples.

Results

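Of the 585 piRNA entries counted in the rat striatum small RNA libraries, 90 hold sequence that is also tRNA sequence. They were chosen by sequence alone, as the entries whose letters share a run of 16 or more bases, on the same strand, with any of the 410 tRNA entries of the same count files. All 1759 entries of the files, including 764 miRNAs, were used for the tests. The 90 members held 140119 of the 159255 counts listed under piRNA names over the 9 libraries (88.0%), which was 1.43% of all counts.

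Rats (8 weeks old, 220 ± 20 g) were dosed through the stomach for 8 weeks, 6 days per week, and striatum RNA was sequenced in 9 libraries, 3 per group. The MMT group (MMT: methylcyclopentadienyl manganese tricarbonyl, an organic manganese fuel additive) received 4 mg/kg in corn oil, a manganese dose of about 1 mg/kg. The MnCl2 group, the study's positive control, received 200 mg/kg of the tetrahydrate salt in 10 ml/kg of saline, and the control group received 1 ml/kg of corn oil. The study used 18 rats, 9 male and 9 female, with 3 per group and sex, but the labels give neither the sex behind a library nor whether RNA was pooled. The p-values therefore measure only how far these libraries spread, and that spread may be technical. Vehicle and compound differ together in MnCl2 against control and in MMT against MnCl2, so the 2 cannot be told apart in either comparison. The MMT and MnCl2 groups also differ in dose. In bulk tissue, fewer cells of a type and less RNA per cell cannot be told apart either.

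piRNAs are small RNAs bound by PIWI proteins, best known for silencing transposons in the germline. They mostly begin with U and carry a methyl group on the 3′ end. tRNAs carry amino acids to the ribosome, and under stress ribonucleases such as angiogenin cut them in the anticodon loop, which leaves 5′ and 3′ fragments of about the same length as piRNAs. Such fragments are abundant in brain, and piRNA catalogues built from sequencing reads contain many of them, so an entry's name does not by itself say which kind of RNA was read.

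The members lay almost wholly in the 5′ part of tRNAs. The longest shared run began at the first base of the tRNA entry in 54 of the 90 members and within bases 1 to 8 in 73. All 73 ended before the anticodon, with a gap of 0 to 10 bases (median 3), and 8 of the 90 overlapped the anticodon. With the tRNA split into 3 equal parts and each member placed by the middle of its run, 79 members with 90.1% of the members' counts were in the 5′ part. Another 7 members with 9.37% of counts were in the middle part, and 4 members with 0.507% were in the 3′ part.

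**Figure D1:**
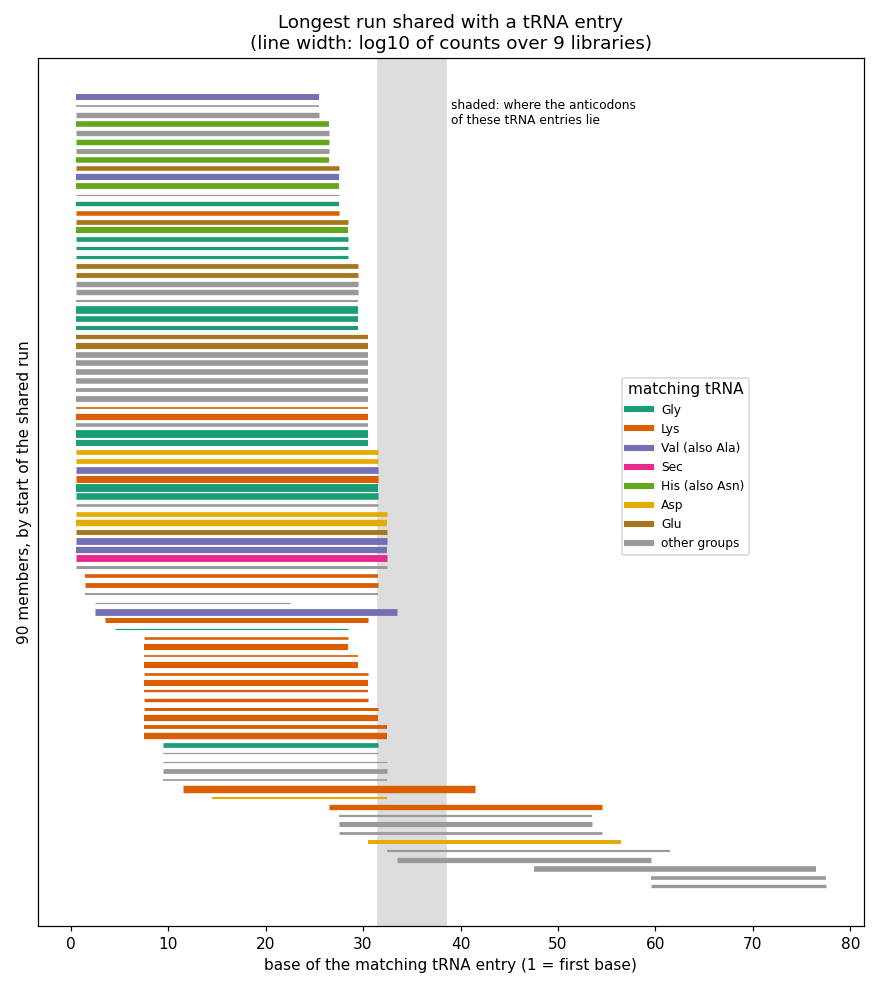
Each line is the longest run that 1 of the 90 members shares with a tRNA entry; the x axis gives the base of that entry, colour the amino acid, and line width the log10 of the counts over 9 libraries. Most lines start at or near base 1 and stop near the left edge of the shaded band, the range of positions at which the anticodons of the matching entries lie.

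The tRNA sequences behind 10 of the members described here are shown with the part that the member covers in capitals, 5′ to 3′, because they locate the members relative to the anticodon loop. Sequences are those of the deposited files, and coordinates (rn6) come from the entry names. The deposited tRNA sequences end in cca, the tail added after transcription, which lies outside the genomic interval of the tRNA gene. The capitals mark pir-64143, pir-64206, pir-71087, pir-64203, pir-64745, pir-72949, pir-64452, pir-64524, pir-88241 and pir-85119, in this order.
tRNA-Gly-GCC, chr13:95723974-95724044, plus strand: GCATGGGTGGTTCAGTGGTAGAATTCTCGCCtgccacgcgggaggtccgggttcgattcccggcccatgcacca
tRNA-Lys-CTT, chr7:106980542-106980614, plus strand: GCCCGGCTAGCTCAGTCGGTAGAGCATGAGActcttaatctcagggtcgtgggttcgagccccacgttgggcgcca
tRNA-Lys-CTT, the same gene, second member: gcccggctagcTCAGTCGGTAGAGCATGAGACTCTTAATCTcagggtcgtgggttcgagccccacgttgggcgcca
tRNA-Sec-TCA, chr1:81479463-81479548, plus strand: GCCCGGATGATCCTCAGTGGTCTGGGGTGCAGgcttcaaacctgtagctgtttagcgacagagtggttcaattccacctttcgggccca
tRNA-Val-CAC, chr13:94104660-94104732, plus strand: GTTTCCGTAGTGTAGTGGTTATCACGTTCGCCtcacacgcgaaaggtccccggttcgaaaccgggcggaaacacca
tRNA-Asp-GTC, chr10:55364090-55364161, plus strand: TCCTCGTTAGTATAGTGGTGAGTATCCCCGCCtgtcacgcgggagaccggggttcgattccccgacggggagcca
tRNA-His-GTG, chr2:218117867-218117938, minus strand: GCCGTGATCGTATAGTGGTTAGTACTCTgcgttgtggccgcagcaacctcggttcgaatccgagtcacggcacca
tRNA-Cys-GCA, chr10:85531000-85531071, plus strand: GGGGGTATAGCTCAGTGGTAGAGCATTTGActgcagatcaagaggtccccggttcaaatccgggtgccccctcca
tRNA-Thr-TGT, chr17:57943074-57943147, plus strand: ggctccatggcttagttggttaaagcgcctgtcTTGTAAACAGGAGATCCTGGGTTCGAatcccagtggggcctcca
tRNA-Arg-CCG, chr10:94966639-94966711, plus strand: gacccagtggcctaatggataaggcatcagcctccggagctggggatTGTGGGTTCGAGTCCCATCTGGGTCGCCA

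The Lys-CTT sequence shown is shared by 9 tRNA entries, the Val-CAC sequence by 3, the Asp-GTC sequence by 12, the His-GTG sequence by 10 and the Cys-GCA sequence by 4, so a member cannot be given to 1 gene among them. Members placed on tRNA-Val-CAC have equally long runs in tRNA-Val-AAC entries, so their anticodon is not resolved. pir-71087 covers bases 12 to 41 of tRNA-Lys and runs through the anticodon, which starts at base 34. pir-85119 covers bases 48 to 76 of tRNA-Arg and ends in the cca tail. It is 1 of 3 members that end there, the others being both entries of pir-64556.

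The members did not look like the rest of the piRNA catalogue at their first base. T began 22 of the 90 members (24.4%), against 420 of the 495 other piRNA entries (84.8%). G began 53 members (58.9%), against 29 of the other piRNA entries (5.86%), and members that start with G held 81.3% of the members' counts. Lengths ran from 26 to 32 bases in members and from 23 to 32 in the other piRNA entries, with the same median. These are descriptions of the catalogue entries, with no test.

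The catalogue also splits the members by a suffix in their names. All 44 entries with the suffix tRNA were members, as were 46 of the 540 with the suffix piRNAcluster. There were 71 distinct sequences among the 90, because 19 sequences were listed under both suffixes, and 25 of the 71 were contained in another. The members are therefore not independent of each other, and how reads were divided between identical entries is not given in the sources used here.

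Of the 90 members, 46 matched a tRNA entry over their whole length, and these held 84.6% of the members' counts. Another 21 differed from the tRNA at 1 base and 14 at 2 or more, and 13 began before the tRNA's first base. The sequences that follow, with differences and bases outside the tRNA in capitals, show the kinds of departure. Positions are counted from the first base of the tRNA entry, and the tRNA's base is given first. Where several tRNA entries share the longest run, the entry with the most counts is named.
pir-64201 (tRNA-Lys-TTT, T4C and G7A): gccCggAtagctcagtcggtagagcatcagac
pir-64202 (tRNA-Lys-TTT, T4C, G7A and A29T): gccCggAtagctcagtcggtagagcatcTg
pir-64746 (tRNA-Val-CAC, G26T): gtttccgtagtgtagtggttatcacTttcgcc
pir-64145 (tRNA-Gly-CCC, G9C): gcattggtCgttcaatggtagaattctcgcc
pir-63850 (tRNA-Arg-CCG, G9C): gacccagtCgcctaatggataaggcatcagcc
pir-63387 (tRNA-Asp-GTC, A57T): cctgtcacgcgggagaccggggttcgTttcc
pir-64556 (tRNA-Asn-GTT, A59T): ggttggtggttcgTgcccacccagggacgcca
pir-64452 (tRNA-His-GTG): Ggccgtgatcgtatagtggttagtactct
pir-62555 (tRNA-His-GTG): AGgccgtgatcgtatagtggttagtact
pir-79437 (tRNA-His-GTG): Tgccgtgatcgtatagtggttagtact

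Counted over entries, the most frequent differences were at base 4 (13 members under 7 pir- names) and base 7 (12 members under 6 pir- names). All of them were Lys-TTT matches with T4C and G7A except for T4A in pir-71186. Bases 1, 26 and 29 each differed in 3 members. Base 9 differed in 5 members under 5 pir- names, which match tRNA-Arg, tRNA-Gly and tRNA-Met. G9C was the change in 4 of them and G9T in pir-64117. The A of the T loop, in the run ttcga, was T in pir-63387 and in both entries of pir-64556. Both bases are known to be methylated in many tRNAs. All 5 members that match tRNA-His carried at least 1 extra base before the first base of the tRNA gene. It was G in pir-64452 (1664 counts over 9 libraries), pir-64451 (990 counts), pir-64450 (628 counts) and pir-62555 (635 counts), and T in pir-79437 (763 counts). tRNA-His is known for a G that is added to its 5′ end after transcription and is not part of the gene.

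The rule's threshold left a clear gap. The members with the shortest shared run, 18 bases, were both entries of pir-64556, with 35 and 24 counts, and pir-72953, with 4 counts. The piRNA entry just outside, pir-62224, shared 15 bases with tRNA-Sec and had 133 counts.

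The level of a member is given as CPM, its counts scaled to the size of the library, and adjusted between libraries by TMM, a factor that brings the typical entry to the same level in each. Library totals ran from 583045 (control 3) to 2012769 (control 1). The members' share of all counts was 1.53%, 1.60% and 1.33% in the MMT libraries, 1.21%, 1.46% and 1.30% in the MnCl2 libraries and 1.53%, 1.38% and 1.53% in the control libraries. The widest 95% Wilson interval of these shares was ±0.0315 percentage points, and it covers counting error only. The neuron miRNAs miR-124-3p (1945 to 2655 CPM), miR-128-3p (16357 to 22393 CPM) and miR-9a-5p (21857 to 32149 CPM) were present in every library, as in brain tissue. The 2 choroid plexus markers summed to 259, 220 and 1934 CPM in MMT libraries, 1171, 243 and 391 CPM in MnCl2 libraries and 356, 1049 and 736 CPM in control libraries. The 4 blood markers summed to 583 to 811 CPM with MMT, 525 to 1101 CPM with MnCl2 and 426 to 649 CPM in control, with miR-486 at 0 in MnCl2 1. The 3 muscle markers ran from 65.3 to 210 CPM and the 2 oligodendrocyte markers from 2991 to 5226 CPM. Their part in the results was not tested.

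Few members held most of the counts. The 3 most abundant made up 43.5% of the members' counts and the 10 most abundant 71.8%. At the other end, 33 members had fewer than 100 counts over the 9 libraries and 18 fewer than 10. By amino acid, 13 members matching tRNA-Gly held 47.7% of counts, 21 matching tRNA-Lys 22.0%, and 6 matching tRNA-Val and, over shorter runs, tRNA-Ala 13.2%. The single tRNA-Sec member held 3.66%, the 5 tRNA-His members (with shorter runs in tRNA-Asn) 3.34%, and 8 members whose longest runs are mostly in tRNA-Cys 3.17%. The 6 tRNA-Asp members held 2.44% and the 7 tRNA-Glu members 1.97%, and the remaining 9 groups each held under 1% of the members' counts.

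**Figure D2:**
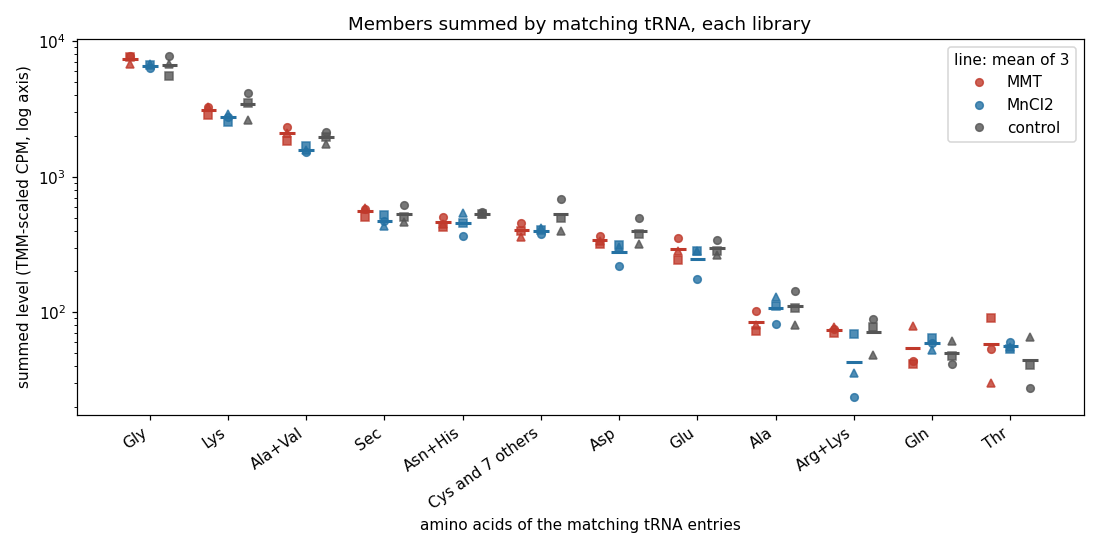
Summed level of the members by matching tRNA (TMM-scaled CPM, log axis) in each library, as circle, square and triangle for libraries 1, 2 and 3, with lines at the mean of 3; the 12 groups with most counts are drawn. MMT, MnCl2 and control libraries lie close together in most groups, from Gly at 7391, 6577 and 6726 CPM (means) down to Thr at 57.9, 56.7 and 44.7 CPM.

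Summed over all members, the level was 15979, 14624 and 14538 CPM in MMT libraries, 12551, 13241 and 13542 CPM in MnCl2 libraries and 17143, 13605 and 13538 CPM in control libraries. At this scaling, control 1 was the highest of the 9, and the MMT libraries lay wholly above the MnCl2 libraries. By share of all counts the 2 treated groups overlapped, with MMT 3 at 1.33% and MnCl2 2 at 1.46%. The mean was 15047 ± 808 CPM with MMT, 13111 ± 508 CPM with MnCl2 and 14762 ± 2062 CPM in control (SD, n = 3 each). Exact two-sided permutation tests of 3 against 3, which cannot go below p = 0.1, gave log2 differences of 0.03 for MMT against control (p = 1), -0.17 for MnCl2 against control (p = 0.2) and 0.20 for MMT against MnCl2 (p = 0.1, adjusted 0.3). Scaled on the miRNA entries alone, the 3 differences were -0.07, -0.37 and 0.30, so the sign for MMT against control depends on the scaling. Scaled by total counts, the difference for MMT against MnCl2 was 0.16 (exact permutation p = 0.2). Without control 1, the difference for MnCl2 against control was -0.05.

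As a percentage of the counts of the 251 tRNA entries that they match, a measure that needs no scaling, the members stood at 5.75 ± 0.336% with MMT, 5.13 ± 0.342% with MnCl2 and 5.69 ± 0.874% in control (SD, n = 3 each). The exact permutation p-values were 0.9 for MMT against control, 0.5 for MnCl2 against control and 0.2 for MMT against MnCl2. Without control 1, the log2 difference for MnCl2 against control was -0.019, against -0.14 with it. Whether a read could count under both kinds of entry is not given in the sources used here. The percentage was highest for tRNA-Sec, the tRNA of selenocysteine, at 17.6% to 19.1% in MMT libraries, 14.8% to 17.2% in MnCl2 libraries and 14.5% to 16.3% in control libraries. MMT lay wholly above both other groups there, a pattern seen among 17 groups after the values were known and not tested. The percentage was 7.93% to 11.7% for Gly, 8.76% to 11.9% for Lys and 0.147% to 0.347% for Gln.

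With edgeR's quasi-likelihood test over the 1113 entries that passed its filter on low counts, no member was called in any comparison at an adjusted p under 0.05. The background was the same, with 0% of all entries called in each of the 3 comparisons, and DESeq2 also called 0. Of the 90 members, 58 passed the filter, and the other 32 had too few counts for a test. At an unadjusted p under 0.05, 0 members were higher and 5 lower in MMT than in control, 0 higher and 9 lower in MnCl2 than in control, and 3 higher and 0 lower in MMT than in MnCl2. Of all entries, 0.18% were higher and 1.98% lower in MMT against control, 1.44% higher and 3.14% lower in MnCl2 against control, and 1.35% higher and 0.629% lower in MMT against MnCl2. With DESeq2 the same member counts were 0 and 5, 0 and 11, and 5 and 0. Of all 1113 entries, DESeq2 had 3 and 20, 16 and 53, and 29 and 5.

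The tested members leaned to one side in the MnCl2 comparison. The fitted log2 fold change was positive in 8 and negative in 50 for MnCl2 against control, with a median of -0.30, against 0.06 over all entries, -0.08 over tRNA entries, 0.23 over miRNA entries and 0.11 over the 30 other piRNA entries. For MMT against control, 23 were positive and 35 negative, with a median of -0.11 against 0.01 over all entries. For MMT against MnCl2, 42 were positive and 16 negative, with a median of 0.15 against -0.06 over all entries. Without control 1, the split was 13 and 45 with a median of -0.17 for MnCl2 against control, and 29 and 29 with a median of -0.001 for MMT against control. With entries that share sequence summed to 18 features, MMT against control had 10 positive and 8 negative with a median of 0.03, and MnCl2 against control 2 and 16 with a median of -0.33. The comparisons share libraries, and the members share sequence, so these counts carry no test.

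**Figure D3:**
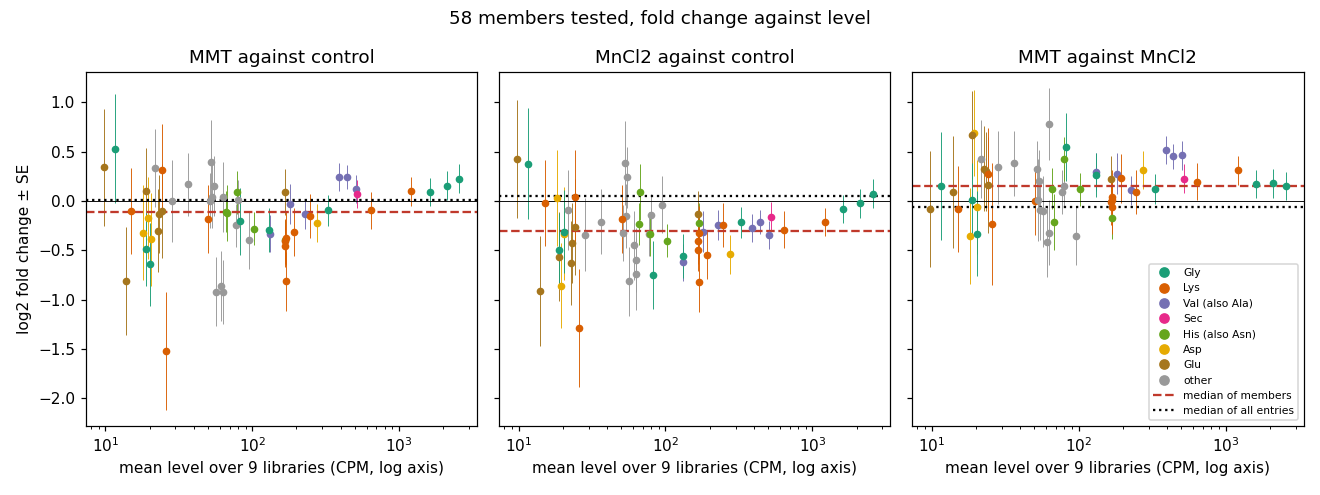
Fitted log2 fold change ± SE of the 58 tested members (y) against mean TMM-scaled CPM over 9 libraries (x, log axis), coloured by matching tRNA, one panel per comparison. The dashed line is the members' median (-0.11, -0.30 and 0.15, left to right) and the dotted line the median of all entries (0.01, 0.06 and -0.06). For MMT against control the widest error bars are those of pir-63476 (SE 0.598) and pir-72193 under the tRNA suffix (SE 0.593).

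tRNA-Gly-GCC gave the 3 most abundant members, which share their start and differ only in length: pir-64143 has 31 bases, pir-64142 30 and pir-64141 29. This 5′ fragment is among the best known tRNA-derived RNAs. pir-64143 under the tRNA suffix had 2896, 2948 and 2553 CPM in MMT libraries, 2537, 2495 and 2522 CPM in MnCl2 libraries and 2810, 1995 and 2362 CPM in control libraries. The MMT and MnCl2 libraries did not overlap, and the control libraries spanned most of the range of both. Its log2 fold change was 0.23 ± 0.145 (SE) for MMT against control, 0.08 ± 0.145 for MnCl2 against control and 0.15 ± 0.145 for MMT against MnCl2, with edgeR adjusted p of 1, 0.918 and 0.981.

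Under the tRNA suffix, pir-64142 had 2402, 2385 and 2060 CPM in MMT libraries, 1967, 2076 and 2007 CPM in MnCl2 libraries and 2393, 1678 and 2071 CPM in control libraries. pir-64141 under the tRNA suffix had 1818, 1710 and 1606 CPM in MMT libraries, 1422, 1507 and 1630 CPM in MnCl2 libraries and 1844, 1336 and 1637 CPM in control libraries. In both of these entries, the 3 groups overlapped, and each treated group lay within the range of the control libraries except for the highest MMT library of pir-64142. Under the piRNAcluster suffix, the log2 fold change of pir-64142 for MnCl2 against control was -0.56 ± 0.224 (SE, unadjusted p 0.0292, edgeR adjusted p 0.843). That of pir-64141 was -0.75 ± 0.344 (unadjusted p 0.0518, edgeR adjusted p 0.843). For MMT against control they were -0.30 ± 0.221 and -0.21 ± 0.337 (edgeR unadjusted p 0.208 and 0.552). All 13 Gly members together averaged 7391 ± 533 CPM with MMT, 6577 ± 228 CPM with MnCl2 and 6726 ± 1115 CPM in control (SD, n = 3 each), and MMT lay wholly above MnCl2 (exact permutation p = 0.1, adjusted 0.638).

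The division of these 3 sequences between their identical entries separated treated from control libraries, but no adjusted p was under 0.05. The 3 share most of their sequence and are not separate evidence. How reads were divided between identical entries is not given. For pir-64143, 88.3% to 90.4% of its counts stood under the tRNA suffix in MMT libraries, 88.4% to 90.9% in MnCl2 libraries and 86.2% to 87.8% in control libraries. For pir-64142 the share was 94.1% to 95.2% in MMT, 94.1% to 96.3% in MnCl2 and 92.0% to 93.7% in control libraries, and for pir-64141 it was 94.9% to 95.7%, 95.3% to 98.2% and 93.1% to 94.8%. Both treated groups lay above control without overlap in all 3 sequences, each at an exact permutation p of 0.1, the smallest possible, and an adjusted p of 0.35. The widest 95% Wilson half-widths were 1.59, 1.38 and 1.47 percentage points for pir-64143, pir-64142 and pir-64141, and the gaps between the nearest treated and control libraries were smaller than these.

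Across the 14 sequences with at least 1000 counts listed under both suffixes, the libraries did not overlap in 12 of 42 such tests. That was 35.7% of sequences for MMT against control, 28.6% for MnCl2 against control and 21.4% for MMT against MnCl2. Which suffix held most counts differed by tRNA. For 6 Lys sequences between 0% and 4.15% of counts stood under the tRNA suffix in each library. In the Cys sequences pir-64524, pir-64518 and pir-64523 32.9% to 66.2% stood under the tRNA suffix.

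**Figure D4:**
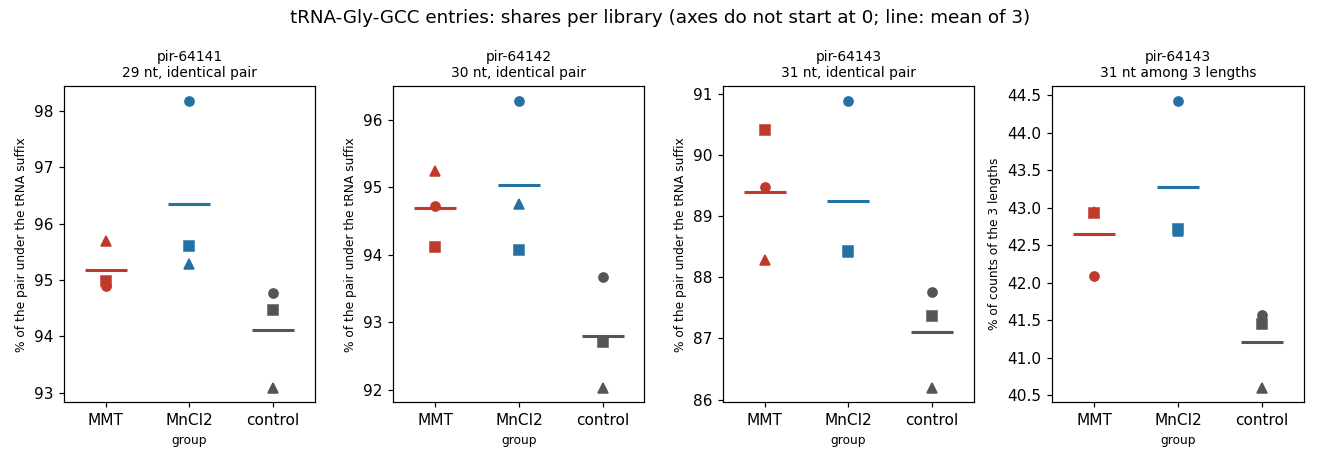
Shares of tRNA-Gly-GCC counts per library (y, percent; axes do not start at 0), by group (x), with lines at the mean of 3: in the 3 panels from the left, the share of an identical pair that stands under the tRNA suffix, and in the right panel the share of the 31-base length among the 3 lengths. In each panel the MMT and MnCl2 libraries lie above all control libraries, for pir-64143 at 88.3% and above, against at most 87.8% in control libraries.

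Among the 3 Gly lengths, with both suffixes summed, the 31-base form held 42.1% to 42.9% in MMT libraries, 42.7% to 44.4% in MnCl2 libraries and 40.6% to 41.6% in control libraries. Neither treated group overlapped control (exact permutation p = 0.1 each, adjusted 0.727 over 60 tests on nested lengths). Such separation was seen in 25% of 20 lengths for MMT against control, 10% for MnCl2 against control and 5% for MMT against MnCl2. The Lys-CTT entries gave another case. The 31-base pir-64206 held 80.1% to 82.8% of the counts of 3 entries in MMT libraries and 70.3% to 79.3% in control libraries. MnCl2 libraries were at 73.9% to 83.9%. The 29-base entry among these 3, pir-64204, held 1.36% to 2.68% over all libraries. It has C at base 28, where pir-64205 and pir-64206 have G. It is therefore not nested in them, although it is counted among the 20 lengths.

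tRNA-Val gave the lowest unadjusted p-values among the members. pir-87165 covers bases 3 to 33 of tRNA-Val-CAC and matches tRNA-Val-AAC over an equally long run. It had 558, 487 and 489 CPM in MMT libraries, 358, 412 and 350 CPM in MnCl2 libraries and 420, 421 and 459 CPM in control libraries. The 3 groups did not overlap, with MMT highest and MnCl2 lowest. Its log2 fold change was 0.24 ± 0.123 (SE) for MMT against control, -0.21 ± 0.123 for MnCl2 against control and 0.45 ± 0.123 for MMT against MnCl2, where the edgeR p was 0.0037 unadjusted and 0.981 adjusted.

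pir-64744, bases 1 to 31, had 502, 400 and 484 CPM in MMT libraries, 318, 349 and 301 CPM in MnCl2 libraries and 442, 385 and 340 CPM in control libraries. pir-64745, 1 base longer, had 652, 482 and 596 CPM in MMT libraries, 401, 435 and 420 CPM in MnCl2 libraries and 595, 529 and 467 CPM in control libraries. In both, MMT lay wholly above MnCl2, and for pir-64745 MnCl2 also lay wholly below control. For MMT against MnCl2 the log2 fold changes were 0.52 ± 0.144 and 0.46 ± 0.145 (SE), with unadjusted p of 0.00407 and 0.00849 and an edgeR adjusted p of 0.981 for both. These Val members share most of their sequence and are not separate evidence.

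pir-64746 has T at base 26, where pir-64745 has G and pir-64742, which matches tRNA-Val-AAC, has A. pir-64746 had 144, 113 and 128 CPM in MMT libraries, 106, 90.9 and 117 CPM in MnCl2 libraries and 193, 162 and 126 CPM in control libraries. MnCl2 lay wholly below control, and its log2 fold change of -0.62 ± 0.190 (SE) had the lowest unadjusted p of the members in that comparison, 0.00748, with an edgeR adjusted p of 0.843. The 6 Val members together averaged 2097 ± 245 CPM with MMT, 1587 ± 84.0 CPM with MnCl2 and 1956 ± 201 CPM in control (SD, n = 3 each). MnCl2 did not overlap control (log2 -0.30) or MMT (log2 0.40 for MMT against MnCl2), each at an exact permutation p of 0.1 and an adjusted p of 0.638.

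**Figure D5:**
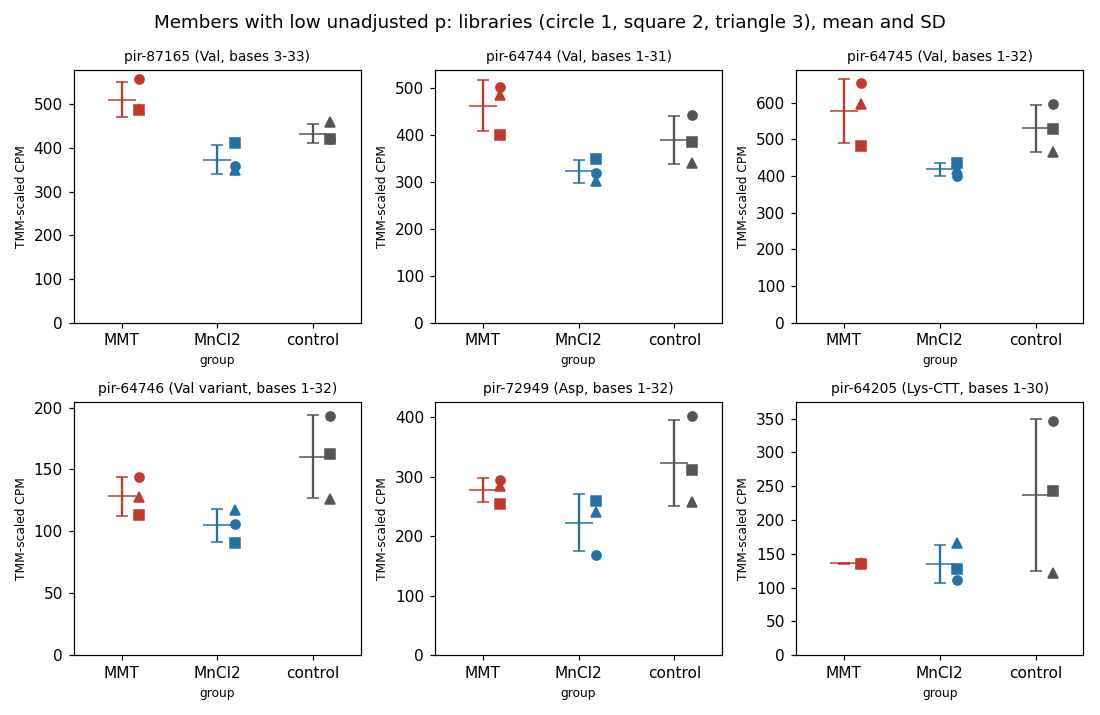
TMM-scaled CPM per library (y, from 0) of 6 members with low unadjusted p, by group (x); circle, square and triangle are libraries 1, 2 and 3, and bars give mean ± SD. The Val members pir-87165, pir-64744 and pir-64745 are higher in all MMT libraries than in all MnCl2 libraries, while the control libraries of pir-64205 spread from 122 to 347 CPM.

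tRNA-Lys gave members of several kinds. pir-71087, which runs through the anticodon, had 1369, 1241 and 1361 CPM in MMT libraries, 1001, 902 and 1301 CPM in MnCl2 libraries and 1279, 1238 and 1195 CPM in control libraries. MnCl2 3 overlapped both other groups, and the log2 fold change for MMT against MnCl2 was 0.31 ± 0.144 (SE, unadjusted p 0.0544, edgeR adjusted p 0.981). It held most counts of the 7 members in the middle part of the tRNA, whose sum averaged 1479 ± 65.9 CPM with MMT, 1208 ± 210 CPM with MnCl2 and 1382 ± 19.4 CPM in control (SD, n = 3 each). MMT lay wholly above control there (log2 0.10, exact permutation p = 0.1, adjusted 0.3).

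pir-64206, the 31-base 5′ form of tRNA-Lys-CTT, had 623, 587 and 746 CPM in MMT libraries, 656, 546 and 510 CPM in MnCl2 libraries and 861, 709 and 518 CPM in control libraries, and the groups overlapped. pir-64205, 1 base shorter, had 136, 135 and 137 CPM in MMT libraries, 112, 127 and 167 CPM in MnCl2 libraries and 347, 242 and 122 CPM in control libraries. Control 1 and control 2 lay above all treated libraries and control 3 among them. Its log2 fold changes were -0.81 ± 0.301 (SE) for MMT against control and -0.82 ± 0.303 for MnCl2 against control, with unadjusted p of 0.0205 and 0.0202 and edgeR adjusted p of 1 and 0.843. pir-63476, bases 4 to 30 of the same tRNA, had 17.0, 11.3 and 17.7 CPM in MMT libraries, 12.4, 13.7 and 28.3 CPM in MnCl2 libraries and 71.7, 48.9 and 10.6 CPM in control libraries, again with control 3 apart from the other control libraries.

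All 21 Lys members together averaged 3118 ± 230 CPM with MMT, 2740 ± 175 CPM with MnCl2 and 3418 ± 741 CPM in control (SD, n = 3 each), and the groups overlapped in each comparison with control. The summed Lys level followed the total count of the library, with Pearson r = 0.829 (permutation p = 0.0055, adjusted 0.0395 over 9 such relations) and Spearman rho = 0.833 (permutation p = 0.00827, adjusted 0.0642, which did not pass 0.05) over 9 libraries. Without control 1 and control 3, the libraries with the most and the fewest counts, r was 0.591 (permutation p = 0.163). With 7 libraries and a narrower range of totals, this cannot show how far the relation rests on the libraries left out. The tRNA-Sec member followed the total count as well, with r = 0.808 (permutation p = 0.00879, adjusted 0.0395), rho = 0.783 (permutation p = 0.0172, adjusted 0.0642) and an r of 0.668 without control 1 and control 3 (permutation p = 0.0956). All members summed had r = 0.734 (permutation p = 0.0245, adjusted 0.0734) and rho = 0.633 (permutation p = 0.076, adjusted 0.114). Over the 9 relations, r ran from 0.305 for Gly to 0.829 for Lys. All of these relations used TMM-scaled levels. The TMM factor was 0.894 in control 1 and 1.13 in control 3. By plain share of all counts, the members together stood at 1.53% in both of these libraries. How far the relations rest on the scaling was not tested. With the total count added to the edgeR model, 0 members were called, and 8 were lower in MMT and 7 in MnCl2 than in control at an unadjusted p under 0.05. Of all 1113 entries, 33 were lower and 26 higher in MMT, and 36 lower and 78 higher in MnCl2, in that fit.

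pir-64203, the tRNA-Sec member, had 574, 502 and 591 CPM in MMT libraries, 472, 523 and 430 CPM in MnCl2 libraries and 619, 507 and 462 CPM in control libraries, and the groups overlapped. Its log2 fold changes were 0.07, -0.16 and 0.23 for MMT against control, MnCl2 against control and MMT against MnCl2, each with SE 0.144 and an edgeR adjusted p of at least 0.843.

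tRNA-Cys members under the piRNAcluster suffix had low unadjusted p for MMT against control. pir-64524 there had 58.8, 40.1 and 38.3 CPM in MMT libraries, 60.8, 56.7 and 54.5 CPM in MnCl2 libraries and 122, 86.0 and 48.6 CPM in control libraries. Control 3 overlapped the MMT libraries, and the log2 fold change was -0.92 ± 0.325 (SE, unadjusted p 0.0163, edgeR adjusted p 1). The same sequence under the tRNA suffix had 98.8, 76.5 and 73.1 CPM in MMT libraries, 74.6, 63.5 and 86.0 CPM in MnCl2 libraries and 92.3, 84.1 and 69.9 CPM in control libraries, with a log2 fold change of 0.01 ± 0.212 for MMT against control. pir-64523 and pir-64518 under the piRNAcluster suffix had log2 fold changes of -0.92 ± 0.353 and -0.87 ± 0.356, also with control 1 highest and control 3 lowest among the control libraries.

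tRNA-Asp members were led by pir-72949, bases 1 to 32, with 295, 255 and 284 CPM in MMT libraries, 168, 260 and 240 CPM in MnCl2 libraries and 402, 311 and 258 CPM in control libraries. MnCl2 2 lay just above control 3, and the log2 fold change for MnCl2 against control was -0.54 ± 0.197 (SE, unadjusted p 0.0192, edgeR adjusted p 0.843). The 6 Asp members together averaged 340 ± 22.6 CPM with MMT, 279 ± 53.2 CPM with MnCl2 and 399 ± 91.7 CPM in control (SD, n = 3 each). MnCl2 did not overlap control (log2 -0.52) or MMT (log2 0.28 for MMT against MnCl2), each at an exact permutation p of 0.1 and an adjusted p of 0.638.

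tRNA-His members together averaged 461 ± 42 CPM with MMT, 453 ± 87.3 CPM with MnCl2 and 535 ± 10.5 CPM in control (SD, n = 3 each). MMT lay wholly below control (log2 -0.21, exact permutation p = 0.1, adjusted 0.638), and MnCl2 3 lay within the control libraries. pir-64451 had 106, 89.1 and 97.2 CPM in MMT libraries, 87.0, 83.0 and 99.6 CPM in MnCl2 libraries and 124, 104 and 129 CPM in control libraries. MnCl2 lay wholly below control, with a log2 fold change of -0.40 ± 0.166 (SE, unadjusted p 0.0346, edgeR adjusted p 0.843). pir-64452, 1 base longer, had 154, 137 and 149 CPM in MMT libraries, 116, 175 and 203 CPM in MnCl2 libraries and 221, 204 and 152 CPM in control libraries, and the groups overlapped.

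The 3′ member pir-85119 of tRNA-Arg had 74.9, 70.3 and 78.1 CPM in MMT libraries, 23.5, 69.4 and 35.7 CPM in MnCl2 libraries and 88.4, 78.2 and 48.6 CPM in control libraries. MMT lay wholly above MnCl2, with a log2 fold change of 0.78 ± 0.367 (SE, unadjusted p 0.0568, edgeR adjusted p 0.981), and MnCl2 2 lay among the control libraries. pir-88241, which covers the anticodon of tRNA-Thr-TGT up to the T loop, had 53.7, 89.1 and 29.8 CPM in MMT libraries, 60.8, 52.8 and 55.6 CPM in MnCl2 libraries and 26.7, 40.1 and 65.4 CPM in control libraries. The groups overlapped, and its log2 fold change for MnCl2 against control was 0.39 ± 0.423 (SE, edgeR adjusted p 0.843).

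The Glu members averaged 293 ± 55.3 CPM with MMT, 247 ± 60.9 CPM with MnCl2 and 296 ± 38.8 CPM in control, and the Cys group 403 ± 48.0, 400 ± 21.7 and 527 ± 146 CPM (MMT, MnCl2 and control; SD, n = 3 each). The groups overlapped in each comparison. The Ala member pir-64508 averaged 79.9 ± 15.6 CPM with MMT, 102 ± 27.7 CPM with MnCl2 and 104 ± 37.7 CPM in control (SD, n = 3 each), and its log2 fold change for MMT against MnCl2 was -0.36 ± 0.293 (SE, edgeR adjusted p 0.981). The Gln member pir-64554 averaged 54.8 ± 21.4, 58.8 ± 6.04 and 50.1 ± 9.74 CPM (MMT, MnCl2 and control). The Asn entries of pir-64556, at the edge of the rule, summed to 10.4 ± 3.90 CPM with MMT, 4.11 ± 3.33 CPM with MnCl2 and 3.06 ± 0.843 CPM in control (SD, n = 3 each), from 59 counts in all. MMT lay above control without overlap there (log2 1.77, exact permutation p = 0.1, adjusted 0.638).

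Over all 17 amino acid groups and 3 comparisons, 8 of 51 exact permutation tests reached the smallest p of 0.1, and all had an adjusted p of 0.638. Counted over single members, 2 of 58 were higher and 2 lower in MMT than in control without overlap, against 1.8% and 2.79% of all entries tested. For MnCl2 against control the counts were 0 higher and 10 lower, against 4.76% and 4.94% of all entries, and for MMT against MnCl2 7 higher and 1 lower, against 4.31% and 4.76%. The 10 lower members of MnCl2 against control were 3 of tRNA-Val (pir-87165, pir-64745 and pir-64746), 2 of tRNA-His, 2 of tRNA-Glu, 2 of tRNA-Gly and 1 of tRNA-Cys. They were named for this pattern after their values were seen.

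The counts at an unadjusted p under 0.05 changed with single libraries. Without control 1, 0 members were lower at an unadjusted p under 0.05 in MMT and 2 in MnCl2 than in control, and without control 3 the counts were 13 and 19. Of all entries, 24 and 12 of 1144 were lower without control 1, and 37 and 94 of 1129 without control 3. Without MMT 1, MMT 2 or MMT 3, 1, 3 and 2 members were lower in MMT than in control. Of all entries, 9 of 1143, 9 of 1130 and 15 of 1144 were lower in these fits. Without MnCl2 1 or MnCl2 2, 1 and 5 members were lower in MnCl2 than in control, against 19 of 1144 and 11 of 1125 entries. For MMT against MnCl2, 6 members were higher without control 3, against 37 of 1129 entries. Without MMT 2 or without MnCl2 3, 5 members were higher, against 48 of 1130 and 32 of 1141 entries.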

How the data were processed

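RNA was isolated with TRIzol and size-selected on a gel (15 to 45 nucleotides) before adapters of a QIAseq miRNA kit were ligated, per the labels' protocols. Reads were trimmed with Trimmomatic and the genome build was rn6, per the submitters' processing notes. The aligner, any strand or molecular identifier setting and the handling of multiply matching reads are not given in the sources, so intervals and spreads may include PCR copies. The authors deposited raw counts per entry, with no normalization. Groups and replicate numbers came from the sample titles.

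The members and lists were chosen with earlier results of these data known. Each member was placed by its longest shared run and grouped by the amino acids of every tRNA entry that it matches. Entries that passed filterByExpr (1113) went into 1 robust quasi-likelihood fit of all 9 libraries with TMM scaling (edgeR 4.0.16, R 4.3.3), two-sided and Benjamini-Hochberg adjusted. The biological coefficient of variation was 0.279. Sums and ratios were set against each other in exact permutation tests (two-sided, 20 arrangements), adjusted over their family. Named members were the 10 most abundant, the most abundant of each amino acid group, and for each comparison the 5 lowest unadjusted p in each direction. On simulated data for MMT against control (1113 entries, 5 simulations of 200 changed entries), the fit recovered 18.2% of changes of 1.5-fold, 57.6% at 2-fold and 76.7% at 4-fold, with 25 false among 532 calls. Alternatives were DESeq2 1.42.0, other scalings and filters, the compared groups alone, the replicate number as a block, the total count as a covariate, each library left out, entries that share sequence summed, a run of 20 bases, and the most abundant member left out. Python 3.11.15 with pandas 2.3.3, numpy 2.4.6, scipy 1.17.1 and matplotlib 3.10.9 was used for the rest.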

Additional observations from a re-analysis of the deposited data

How the results depend on the processing

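No member was called in any of the 3 comparisons under any alternative that was run. Over all entries, the count of calls was 0 under each alternative except for MnCl2 against control with no filter on low counts, which called 1 of 1759 entries, not a member. The stricter filter of 10 CPM in 3 libraries kept the same number of entries as edgeR's own. The same-numbered libraries did not pair (correlations of their deviations from -0.666 to 0.493). With the replicate number as a block, the calls stayed at 0. At an unadjusted p under 0.05, 3 members were lower for MMT against control and 7 for MnCl2 against control. For MMT against MnCl2, 4 were higher. Of all 1113 entries, 17 and 31 were lower and 11 higher, in the same order. Adding the total count to the model gave 8 lower, 7 lower, and 3 higher with 2 lower among members. Of all 1113 entries it gave 33 lower, 36 lower, and 14 higher with 26 lower. With no filter, 2 members were higher for MMT against control and 5 for MMT against MnCl2, against 11 and 12 of 1759 entries. With only the compared groups fitted, 5 were lower for MnCl2 against control, against 24 of 1065 entries. For MMT against MnCl2, 5 were then higher, against 33 of 1063 entries. With entries that share sequence summed, these counts were 0 and 6 lower and 2 higher, against 5 and 24 lower and 14 higher of 713.

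The summed level for MMT against control was near 0 and changed sign. It was -0.072 (log2) scaled on the miRNA entries alone, -0.0146 without the most abundant member, and -0.031 to 0.149 when a library was left out. The ratio to the matching tRNA entries for MMT against control was -0.019 without the most abundant member and -0.059 to 0.146 when a library was left out. For MnCl2 against control, leaving out a library gave sums of -0.23 to -0.05, against -0.17, and ratios of -0.224 to -0.019, against -0.14, both nearest 0 without control 1. Of 239 fold changes of named members under other settings, 1 changed sign: pir-64143 under the tRNA suffix, MnCl2 against control, was -0.019 with no filter, against 0.08. Of 269 with a library left out, 5 changed sign, none past the threshold. They were pir-64143 (-0.104 to 0.212), pir-72193 (-0.012 to 0.877) and pir-64264 (-0.012 to 0.694) for MnCl2 against control, and pir-64452 (-0.359 to 0.0021) for MMT against MnCl2. The causes were not tested. The sums by amino acid and by place, also grouped by longest run (chosen after seeing the data), cannot go below an exact permutation p = 0.1, so their count of 0 under each setting says nothing of stability. Members with few counts have wide errors: 32 of 90 could not be tested at this depth.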
